A study of Homo sapiens with 6 samples.

Results

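The integrated stress response genes described here are 40 genes under the transcription factor ATF4 or close to it, of 35052 genes in the table. They were taken from a list of ATF4 targets, genes of amino acid synthesis and transport, and aminoacyl-tRNA synthetases, and the estimated reads of all their transcripts were summed. They were measured by RNA-seq of polyA RNA in EoL-1, a human leukaemia cell line with eosinophil traits. There were 3 libraries of cells labelled ATF3/JUN double knockout and 3 of cells labelled JUN knockout, so both groups carry the JUN knockout and no unedited cells were among them. The labels give CRISPR/Cas9 editing, growth in RPMI medium with foetal bovine serum, and no treatment or time. The file names add a clone code after JUN to each library: 5Z, 4C and 4A each occur once in either group, as replicates 3, 2 and 1. The double knockout names also hold a second code after ATF3, which is 4E, 3A and 3B for 5Z, 4C and 4A. Clone code here means the code after JUN. Nothing states that the libraries were separate cultures or that a code is 1 clone, so p-values measure the spread between these libraries. Clone, culture and library preparation cannot be told apart.

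Cells that lack amino acids, or whose endoplasmic reticulum or mitochondria are disturbed, phosphorylate the initiation factor eIF2. Most translation then slows, while the mRNA of ATF4 is translated better. ATF4 binds DNA with a C/EBP protein as partner and turns on genes that make, import and charge amino acids, and also factors and feedback proteins that shape the response. ATF3, the gene edited in the double knockout, is itself known as a target of ATF4.

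The libraries held 26146998 to 29567970 estimated reads. Of the 40 genes, 38 passed the filter on low counts and 2 did not: STC2, which encodes a secreted glycoprotein, had 4 to 26 reads per library, and GDF15, a stress cytokine gene, had 0 to 5. ATF3 mRNA followed the codes, at 7.63, 10.0 and 13.1 CPM (reads relative to the library total after TMM scaling) for 5Z, 4C and 4A in the double knockout and 8.89, 13.7 and 20.2 CPM in the JUN knockout. Within each code ATF3 was lower in the double knockout, as were 15.1% of all tested genes. JUN, edited in both groups, was at 25.7, 16.6 and 13.8 CPM for 5Z, 4C and 4A in the double knockout. In the JUN knockout it was at 24.6, 27.2 and 13.2 CPM, so JUN was lowest with 4A in both groups. An edit can leave mRNA in place, so these levels do not check the edits. The labels call the cells eosinophils. Of 10 eosinophil markers, only RNASE2 and RNASE3, which encode ribonucleases of the granule, averaged at least 1 CPM, and CLC, EPX, PRG3 and IL5RA had no read. Of 5 neutrophil markers, MPO and CSF3R averaged at least 1 CPM, at 47.0 and 32.3 CPM, and ELANE, AZU1 and PRTN3 had no read. T cell markers were at or near 0.

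Sites at which ATF4 can bind are known to carry the core TGATGNAA. RefSeq (GRCh38.p14) gave promoter windows, 250 bases before to 50 after a start, for 32 of the 40 genes, and 11 of these held the core on either strand. Among all tested genes with a window, 2.76% held it. The match is a description and shows no binding. The stretches of the 6 with the highest mean CPM are printed on the gene's strand with the core, or its reverse complement, in capitals. They are shown as the synthetase and transport genes with a core and the most reads.
AARS1, chr16:70289656-70289723, minus strand: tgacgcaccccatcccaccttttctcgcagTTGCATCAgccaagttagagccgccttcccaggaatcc
GARS1, chr7:30594815-30594882, plus strand: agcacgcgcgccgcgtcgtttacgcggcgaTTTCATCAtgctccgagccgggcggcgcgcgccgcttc
MARS1, chr12:57488034-57488097, plus strand: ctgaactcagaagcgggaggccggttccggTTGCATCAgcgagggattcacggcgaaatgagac
NARS1, chr18:57621807-57621852, minus strand: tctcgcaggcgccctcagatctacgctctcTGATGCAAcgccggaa
TARS1, chr5:33440937-33440994, plus strand: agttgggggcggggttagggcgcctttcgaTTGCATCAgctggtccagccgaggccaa
SLC3A2, chr11:62881714-62881743, plus strand: ctgaagtaatgtgcaggactccTTACATCA
The core in AARS1 began 187 bases before the start, that in GARS1 33 and that in MARS1 4. In NARS1, TARS1 and SLC3A2 it began 14, 2 and 37 bases past a start. The other 5 genes with the core were ASNS, CHAC1, CEBPG, IARS1 and CARS1. In ASNS it read TGATGAAA and began 68 bases before a start, and in CHAC1 it read TGATGCAA on the other strand and began 209 before. The cyclic AMP element TGACGTCA, whose letters cannot overlap TGATGNAA on either strand, was in the window of 1 gene, PPP1R15A, against 3.70% of tested genes.

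The stress response genes varied together across the 6 libraries, in the order of the clone codes. In both genotypes most were lowest with code 5Z and highest with code 4A. Of the 38 tested, 31 had the order 4A over 4C over 5Z within the double knockout and again within the JUN knockout, against 11.4% of all tested genes. In 28 the codes did not overlap at all, so that both 4A libraries lay above both 4C libraries and these above both 5Z libraries (5.87% of all tested genes). Both 5Z libraries were below the other 4 in 32 of the 38 (15.6% of all tested genes), and both 4A libraries were above the other 4 in 31 (12.8%). KARS1 alone had the reverse order in both genotypes (9.39%). The exceptions to the order were ATF5, NUPR1, CTH, EPRS1, CARS1, VARS1 and KARS1. As the list was drawn up with earlier results of these data known, the shares of all genes are set beside it as description. The 40 genes together took 0.744% and 0.793% of the reads of the 5Z double knockout and JUN knockout libraries, 1.11% and 0.994% of the 4C libraries, and 1.27% and 1.32% of the 4A libraries.

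The codes were compared in edgeR's quasi-likelihood test with replicate number and genotype in 1 model, with Benjamini-Hochberg adjustment over all 12954 genes at 0.05. It called 23 of the 38 genes, against 1.75% of all genes. Between 5Z and 4A, 37 of the 38 had a log2 fold change below 0. Of the 38, 30 were called lower in 5Z (3.80% of all genes) and 0 were called higher (2.16%). Of these 30 calls, 20 were lost without the 5Z double knockout library and 14 without the 5Z JUN knockout library, and 10 held without each: CEBPB, DDIT3, CHAC1, SESN2, DDIT4, TRIB3, ALDH1L2, CTH, SLC7A11 and WARS1. The sign stayed the same in all 30. The median log2 fold change of the 38 was -0.73 for 5Z minus 4A, against -0.00 over all genes, and those other than ALDH1L2 ranged from -2.20 to 0.12. Between 5Z and 4C, 5 were lower in 5Z, namely CHAC1, SESN2, DDIT4, ALDH1L2 and SLC7A11 (0.201% of all genes), with a median of -0.44, and between 4C and 4A, 1, CTH, was lower in 4C (0.108%) with a median of -0.32. Each code has 2 libraries and the fit 2 residual degrees of freedom, and on simulated counts this test made more false calls than its threshold allows. With an offset for transcript length it called 10 of the 38, and the share of all genes fell too, to 0.471%. Without the 5Z double knockout library 37 of 39 tested members had a log2 fold change below 0 for 5Z minus 4A. Without the 5Z JUN knockout library 38 of 39 did. Leaving out any 1 library gave a median of -0.91 to -0.73 for 5Z minus 4A.

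**Figure D1:**
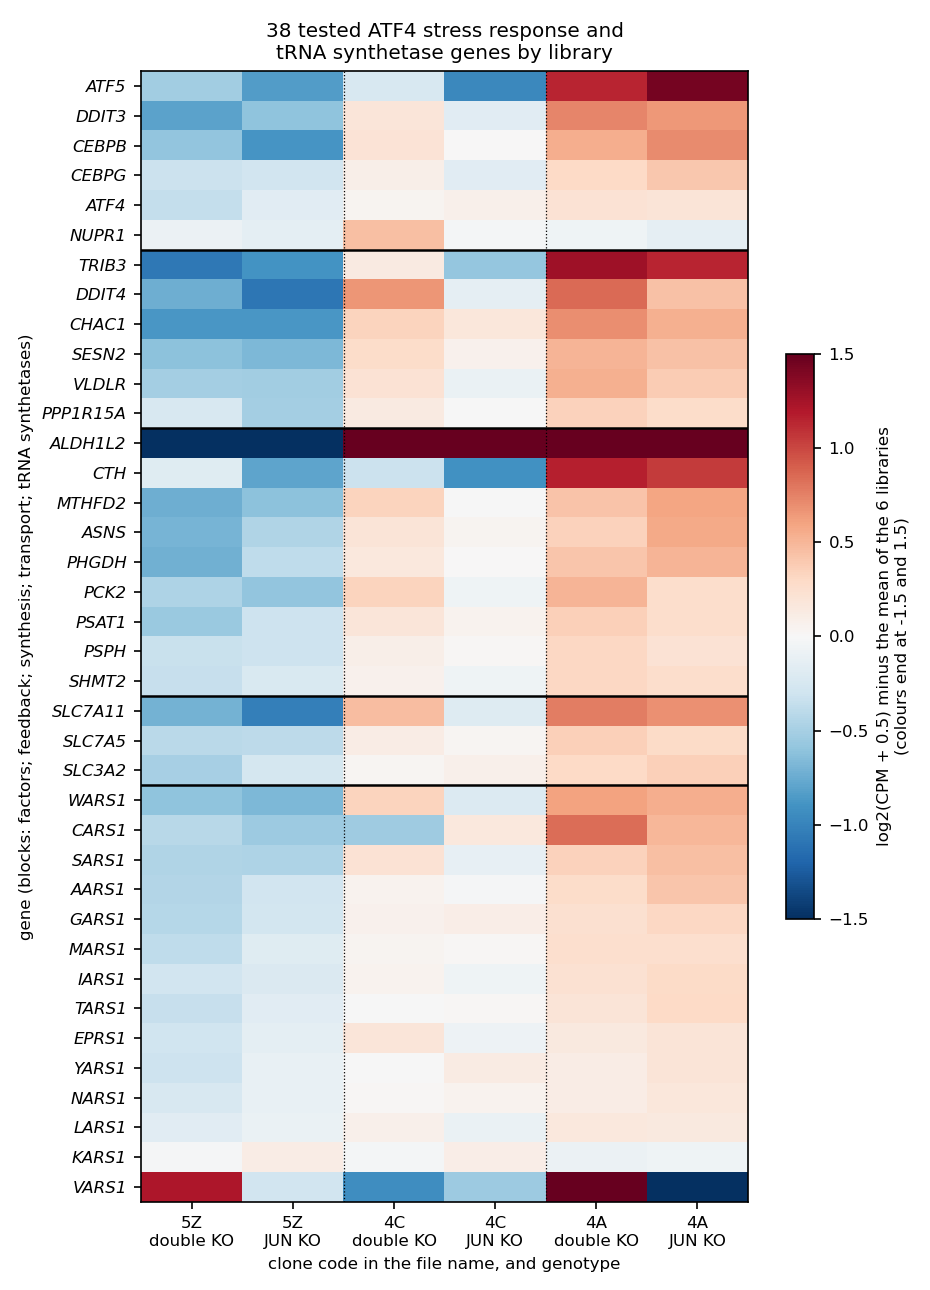
Heat map of log2(CPM + 0.5) minus the gene's mean over the 6 libraries, for the 38 tested genes in rows and the libraries in columns, grouped by clone code with the double knockout left of the JUN knockout. Red is above the mean and blue below, and in 31 rows the values climb from 5Z over 4C to 4A in both genotypes.

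The share of reads from mitochondrially encoded genes also differed between the codes, at 5.69% and 6.16% in the 5Z double knockout and JUN knockout libraries, 4.68% and 6.03% with 4C, and 4.50% and 4.36% with 4A. The 4 monocyte markers, of which 3 averaged at least 1 CPM and CD14 stayed under 0.2 CPM, summed to 475 and 400.4 CPM with 5Z, 255 and 420.5 CPM with 4C, and 184 and 144 CPM with 4A, with the double knockout given first. LYZ, the lysozyme gene, carried most of that sum, and FCGR1A, a receptor for antibodies, went the other way, at 9.54 and 9.78 CPM with 5Z against 20.5 and 19.8 CPM with 4A. The summed eosinophil markers were at 106 and 112 CPM with 5Z, 63.3 and 93.7 CPM with 4C, and 81.6 and 37.3 CPM with 4A. The summed neutrophil markers were at 86.9 and 73.4 CPM with 5Z, 68.1 and 68.1 CPM with 4C, and 117 and 62.3 CPM with 4A. The 3 B cell markers, of which only CD79A averaged at least 1 CPM, summed to 3.36 and 2.77 CPM with 5Z, 4.66 and 2.41 CPM with 4C, and 8.48 and 6.50 CPM with 4A. Total reads followed the codes in the double knockout, highest with 5Z, and not in the JUN knockout. The part of these in the result was not tested, and in bulk RNA fewer cells of a type and less RNA per cell cannot be told apart.

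Among the stress transcription factors, ATF4 itself (chromosome 22, 39519695 to 39522685, plus strand, GRCh38) varied least of those that followed the codes. Its mRNA was at 489 CPM in the double knockout and 558 CPM in the JUN knockout library of code 5Z, at 643 and 664 CPM with 4C, and at 727 and 718 CPM with 4A. The 3 codes did not overlap. The log2 fold change was -0.47 for 5Z minus 4A (SE 0.10, edgeR adjusted p = 0.0388), but the test over all 3 codes gave an adjusted p of 0.0944, and the 5Z minus 4A call was lost with a length offset, without robust dispersion and without either 5Z library. As ATF4 is set largely by translation, its mRNA is not a measure of its protein.

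DDIT3 encodes CHOP, a C/EBP family factor linked to cell death under stress. It was at 8.87 and 10.3 CPM in the double knockout and JUN knockout libraries of 5Z, 18.1 and 14.1 CPM with 4C, and 26.7 and 25.3 CPM with 4A. It fell by 1.44 on the log2 scale for 5Z minus 4A (SE 0.16, edgeR adjusted p = 0.00874). CEBPB, a C/EBP factor and partner of ATF4, was at 28.1 and 22.7 CPM with 5Z, 49.1 and 42.5 CPM with 4C, and 62.2 and 69.8 CPM with 4A. Both genes kept the 3 codes apart. ATF5, a factor translated in a way like ATF4, split differently. Its levels were 26.5 and 21.0 CPM with 5Z, 32.1 and 19.2 CPM with 4C, and 84.5 and 103.6 CPM with 4A, so 5Z and 4C overlapped and 4A stood above both. CEBPG, another C/EBP partner, was at 106 and 108 CPM with 5Z, 140.1 and 117 CPM with 4C, and 163 and 175 CPM with 4A. It was lower in 5Z than in 4A (-0.66, SE 0.12, edgeR adjusted p = 0.0265). The edgeR test over all 3 codes gave CEBPG an adjusted p of 0.0653. Its 5Z minus 4A call was lost with a length offset and without either 5Z library. NUPR1, a small stress protein gene, was at 0.654 to 1.25 CPM and did not pass.

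The feedback and signalling genes had the lowest median log2 fold change of the role groups for 5Z minus 4A, at -1.32. TRIB3, a pseudokinase that holds ATF4 back, was at 34.2 and 38.8 CPM in the 5Z double knockout and JUN knockout libraries, 79.9 and 48.4 CPM with 4C, and 175 and 161 CPM with 4A. Its log2 fold change was -2.20 for 5Z minus 4A (SE 0.22, edgeR adjusted p = 0.0101). CHAC1, an enzyme that breaks down glutathione, was at 22.5 and 22.5 CPM with 5Z, 52.7 and 46.7 CPM with 4C, and 67.9 and 60.2 CPM with 4A. CHAC1 and SESN2, a leucine sensor that restrains the growth kinase mTORC1, were also lower in 5Z than in 4C (edgeR adjusted p = 0.00534 and 0.0231). DDIT4, another inhibitor of mTORC1, was at 113 and 88.3 CPM with 5Z, 296 and 171 CPM with 4C, and 338 and 254 CPM with 4A. Its 4C and 4A libraries overlapped, since the double knockout library of 4C was above the JUN knockout library of 4A. SESN2 was at 48.5 and 46.3 CPM with 5Z, 89.9 and 77.3 CPM with 4C, and 106 and 101 CPM with 4A. VLDLR, a lipoprotein receptor gene, was at 102 and 100.4 CPM with 5Z, 168 and 135 CPM with 4C, and 210.0 and 188 CPM with 4A. PPP1R15A, which directs a phosphatase to eIF2, had the same order at 29.9 to 54.6 CPM. All 6 tested genes of this group passed in the test over codes, against 1.75% of all genes.

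**Figure D2:**
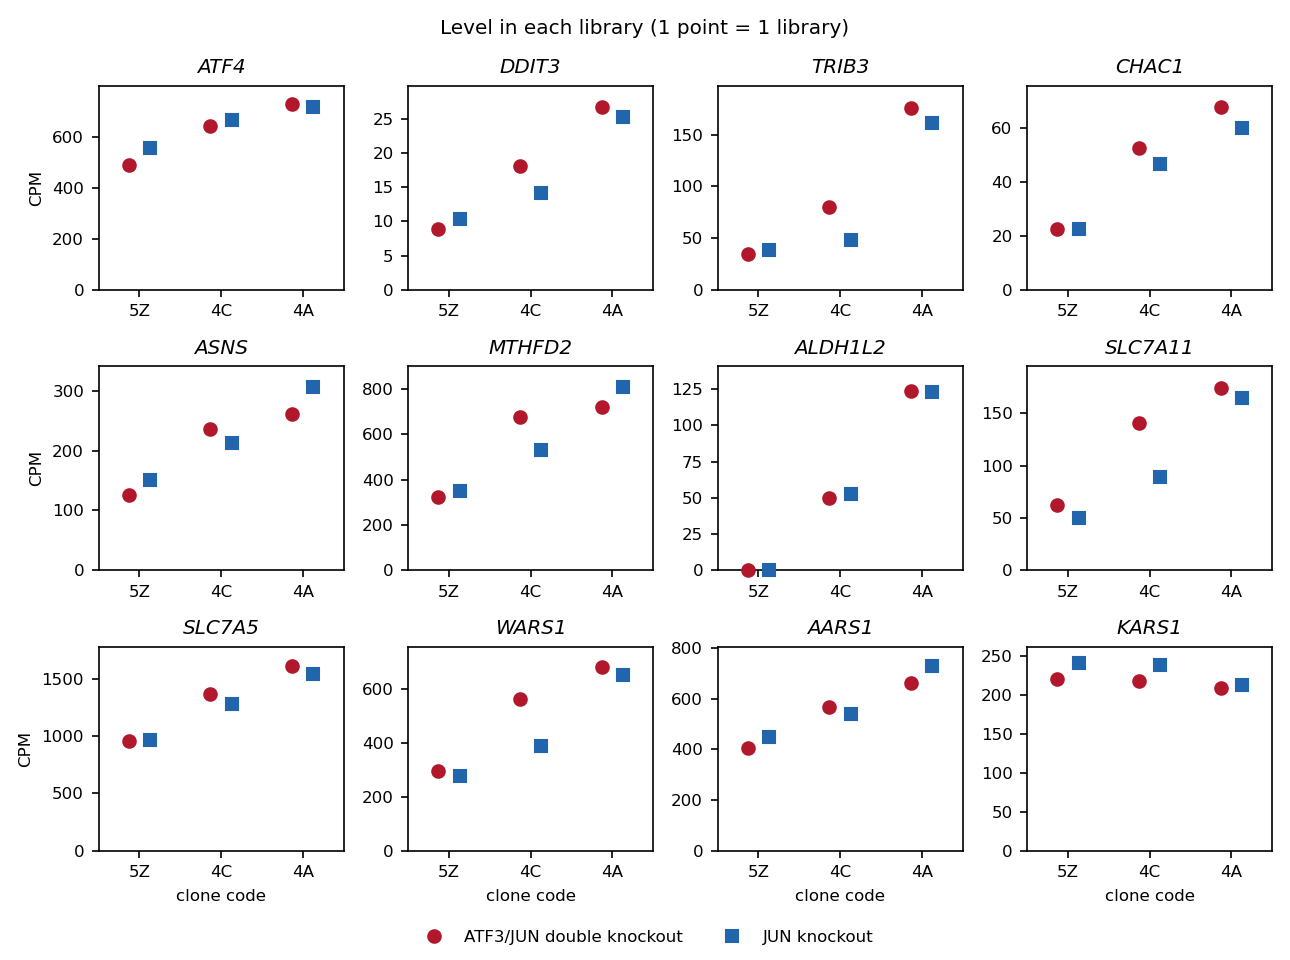
CPM of 12 genes in each library, with clone code on the horizontal axis, double knockout as red circles and JUN knockout as blue squares, 1 point per library and each vertical axis starting at 0. In all panels but KARS1 both 5Z points lie below the other 4, and for ALDH1L2 they lie at or near 0.

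Genes of serine synthesis, one-carbon metabolism and related pathways followed the same order. MTHFD2, an enzyme of mitochondrial folate metabolism and the most abundant of the group by CPM, was at 322 and 350 CPM in the 5Z double knockout and JUN knockout libraries, 676 and 533 CPM with 4C, and 723 and 809 CPM with 4A. It fell by 1.19 on the log2 scale for 5Z minus 4A (SE 0.14, edgeR adjusted p = 0.00896). ASNS, which makes asparagine, was at 126 and 150.2 CPM with 5Z, 236 and 212 CPM with 4C, and 261 and 307 CPM with 4A. The 5Z libraries of both genes were below the other 4. PHGDH, the first enzyme of serine synthesis, was at 281 to 661 CPM. The other serine enzymes PSAT1 and PSPH were at 180 to 339 and 82.6 to 129 CPM, and SHMT2, which links serine to folate in mitochondria, at 304 to 479 CPM. All 9 genes of the group were lower in 5Z than in 4A, with edgeR adjusted p from 0.00498 to 0.0274 (3.80% of all genes). Of the 9, 7 passed in the test over codes (1.75% of all genes).

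CTH, an enzyme that makes cysteine, grouped like ATF5. It was at 14.8 and 9.51 CPM in the 5Z double knockout and JUN knockout libraries, 13.3 and 8.71 CPM with 4C, and 38.3 and 35.4 CPM with 4A. It was the 1 gene of the 38 that was called lower in 4C than in 4A (-1.78, edgeR adjusted p = 0.00997). PCK2, the mitochondrial form of the enzyme that makes phosphoenolpyruvate, was at 85.1 and 78.1 CPM with 5Z, 148 and 113 CPM with 4C, and 168 and 141 CPM with 4A.

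ALDH1L2, a mitochondrial enzyme that oxidises formyl-folate, was all but missing with code 5Z. It had 0 reads in the double knockout and 11 in the JUN knockout library of 5Z. With 4C it had 1315 and 1470 reads (49.8 and 52.9 CPM), and with 4A 3085 and 3343 reads (124 and 123 CPM). For 5Z against 4A this was at least 1178-fold lower in the double knockout, with 0 counted as 3 reads in that library, and 290.2-fold lower in the JUN knockout. All 11 reads of the 5Z JUN knockout library were on ALDH1L2-203, annotated as retaining an intron. In the other 4 libraries ALDH1L2-201, the main coding transcript, held 71.9% to 79.0% of the reads. ALDH1L2 (chromosome 12, 105019784 to 105084577, minus strand) was the 1 gene in the table below 0.5 CPM in both 5Z libraries and at 20 CPM or more in the other 4, a pattern looked for after its values were seen. Of the 6 tested neighbours within 500000 bases, CHST11 was lower in 5Z than in 4A (-0.44, edgeR adjusted p = 0.0422) at 181 and 163 CPM with 5Z against 243 and 222 CPM with 4A, and the other 5 did not pass. NOPCHAP1, which overlaps it, was at 50.9 and 45.8 CPM with 5Z and at 36.1 and 42.9 CPM with 4A, and SLC41A2 was at 0.531 to 1.07 CPM in the 6 libraries.

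All 3 transport genes passed in the test over codes (1.75% of all genes). SLC7A11 encodes the cystine and glutamate exchanger, and it was at 61.9 and 50.0 CPM in the 5Z double knockout and JUN knockout libraries, 141 and 89.1 CPM with 4C, and 174 and 164 CPM with 4A (5Z minus 4A: -1.61, SE 0.15, edgeR adjusted p = 0.00486). SLC7A5, an importer of large neutral amino acids, had the highest CPM of the 40 genes, at 954 and 964 CPM with 5Z, 1367 and 1284 CPM with 4C, and 1616 and 1540 CPM with 4A. SLC3A2, the chain shared by both transporters, was at 249.8 and 293 CPM with 5Z, 358 and 372 CPM with 4C, and 434 and 451 CPM with 4A. The 3 codes did not overlap in any of them.

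Among the 14 cytosolic aminoacyl-tRNA synthetases, the enzymes that load amino acids onto tRNA, differences were smaller. The median log2 fold change for 5Z minus 4A was -0.50, against -1.02 for the other 24 tested genes of the 40. In the test over codes 4 of the 14 passed (1.75% of all genes): WARS1, SARS1, AARS1 and GARS1. WARS1, for tryptophan, stood apart with 294 and 279 CPM in the 5Z double knockout and JUN knockout libraries, 564 and 387 CPM with 4C, and 681 and 652 CPM with 4A (5Z minus 4A: -1.22, SE 0.14, edgeR adjusted p = 0.00843). AARS1, for alanine and the most abundant by CPM, was at 404 and 450.5 CPM with 5Z, 569 and 539 CPM with 4C, and 663 and 729 CPM with 4A. GARS1, for glycine, was at 355 and 395 CPM with 5Z, 497 and 509.8 CPM with 4C, and 561 and 589 CPM with 4A. SARS1, for serine, was at 159.7 and 158 CPM with 5Z, 254 and 201 CPM with 4C, and 278 and 299 CPM with 4A. For 5Z minus 4A, GARS1 fell by 0.62 and SARS1 fell by 0.86 on the log2 scale. MARS1, for methionine, was at 314 and 360.2 CPM with 5Z, 419 and 413 CPM with 4C, and 488 and 488 CPM with 4A. MARS1, IARS1 and TARS1 were also lower in 5Z than in 4A (edgeR adjusted p = 0.0305, 0.0337 and 0.0306) without passing over all codes. NARS1, LARS1, YARS1 and EPRS1 had log2 fold changes of -0.32, -0.29, -0.37 and -0.39 and did not pass. KARS1, for lysine, had no such order, with 220.0 and 241 CPM with 5Z, 218 and 239 CPM with 4C, and 209 and 213 CPM with 4A.

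CARS1 and VARS1 are uncertain. CARS1, for cysteine, was at 41.7 and 38.1 CPM in the 5Z double knockout and JUN knockout libraries, 38.5 and 62.7 CPM with 4C, and 100.2 and 79.4 CPM with 4A. In the deposited files, 9 transcripts of at least 2000 bases that matched no gene had exactly the length of a CARS1 transcript and held 2227 to 4473 reads per library. Their sequences were not used here, and a shared length does not show that they belong to CARS1. Other stress response genes had such matches too. Among them were PHGDH (4, with 960 to 1203 reads per library), SLC7A5 (1, 1412 to 1810), TARS1 (3, 1060 to 1342) and IARS1 (2, 792 to 1252). VARS1 had 0. In each library the matched reads outnumbered the gene's own for CARS1, which had 989 to 2491, and not for PHGDH, SLC7A5, TARS1 or IARS1. VARS1, for valine, lies in the major histocompatibility complex and had 1272, 131 and 667 reads in double knockout replicates 1, 2 and 3 against 70, 185 and 208 in those of the JUN knockout. Its coding transcript VARS-215 held 93.5% and 84.4% of the reads in double knockout replicates 1 and 3 and 0.0% in the other 4 libraries. DDIT3 and MARS1 overlap on opposite strands, and whether the counting used strand is not given in the sources used here.

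Related genes that are not among the 40 were counted in the same fit. Of 10 other amino acid transporter genes, 6 were called lower in 5Z than in 4A (3.80% of all genes) and 0 were called higher (2.16%). The 6 were SLC1A4, SLC1A5, SLC7A1, SLC38A1, SLC38A2 and SLC43A1, and the median of the 10 was -0.55. The other 4 had log2 fold changes above 0 and did not pass. The largest was 1.64 for SLC6A9, at 7.81 and 8.54 CPM with 5Z and 1.33 and 4.15 CPM with 4A, double knockout first. SLC1A5, a glutamine transporter and the most abundant of the 10, was at 503 and 563 CPM in the 5Z double knockout and JUN knockout libraries and 830 and 753 CPM with 4A. Of 17 mitochondrial synthetase genes none passed, and their median was 0.30, with 15 above 0 and 2 below. IARS2, the most abundant, was at 153 and 144 CPM with 5Z and 140.3 and 122 CPM with 4A. Of 9 genes for the other cytosolic synthetases and their scaffold none passed either, with a median of 0.22 and QARS1 the most abundant at 242 and 203 CPM with 5Z and 251 and 221 CPM with 4A. Among 12 genes for eIF2 kinases, eIF2B and the phosphatase, the median was 0.22, and none passed between 5Z and 4A. EIF2AK1, the heme-regulated kinase and the most abundant of these, was at 197 and 198 CPM with 5Z and 185 and 165 CPM with 4A. EIF2AK2, the kinase PKR, passed in the test over codes (edgeR adjusted p = 0.0492) with its lowest levels in 4C, at 28.1 and 20.4 CPM. The difference between lists was not tested, and the lists were chosen with earlier results of these data known.

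**Figure D3:**
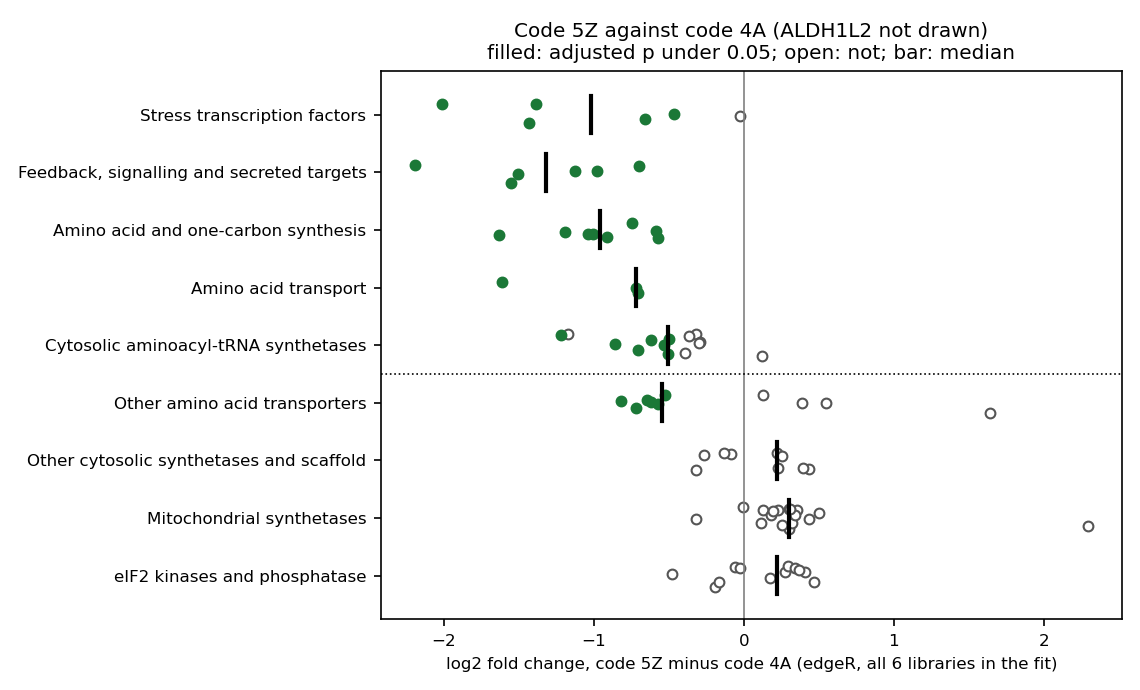
Log2 fold change for code 5Z minus code 4A of each tested gene, by role group of the 40 genes (above the dotted line, ALDH1L2 left out) and for the 4 related lists (below it). Filled points passed at an adjusted p of 0.05, open points did not, and bars are medians. All filled points are below 0, and the mitochondrial synthetases lie mostly above 0.

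The double knockout was then compared with the JUN knockout, a comparison that bears on ATF3 where JUN is already edited. No stress response gene passed. edgeR called 0 of the 38 and 0% of all 12954 genes. At an unadjusted p under 0.05 there was 1 of the 38, VARS1, against 5.81% of all genes. Its log2 fold change was 2.21 (SE 0.80, edgeR adjusted p = 0.838), and 0.16 with the transcript length offset. In TPM it averaged 18.6 ± 2.99 in the double knockout and 16.5 ± 7.75 in the JUN knockout (SD, n = 3 each). DESeq2 and limma-voom called 0 of the 38 too, and 71 and 4 of all genes. The groups overlapped in each of the 38, while they did not in 12.3% of all tested genes. The median log2 fold change of the 38 was 0.03, against 0.00 over all genes, and those other than VARS1 ranged from -0.13 to 0.54. ATF4 averaged 619.9 ± 121 CPM in the double knockout and 646 ± 81.4 CPM in the JUN knockout (SD, n = 3 each), and its log2 fold change was -0.06 with an SE of 0.16 and an edgeR adjusted p of 0.985. Exact two-sided permutation of its 6 values gave p = 0.7, where 0.1 is the smallest possible. Spread within a group was wide where the codes differed, as for TRIB3 at 96.5 ± 72.0 CPM in the double knockout and 82.7 ± 68.0 CPM in the JUN knockout (SD, n = 3 each).

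Within the codes, 9 of the 38 were higher in the double knockout in 3 of 3 pairs (18.0% of all genes) and 6 were lower in 3 of 3 (15.1%). The log2 fold change of DDIT4 was 0.54, with an SE of 0.49 and an edgeR adjusted p of 0.95. It was 0.23 when the 5Z library of the JUN knockout was left out and 0.95 when the 4A one was. Its pair differences were 0.35, 0.79 and 0.41 on the log2 scale for 5Z, 4C and 4A. With the replicate number as a block its unadjusted p was 0.00118 and its adjusted p 0.231. CTH, PCK2 and SLC7A11 were also higher in 3 of 3 pairs and had an unadjusted p under 0.05 with the block (adjusted p = 0.405, 0.439 and 0.439), so that 4 of the 38 did, against 9.79% of all genes. The others higher in 3 of 3 were NUPR1, SESN2, PPP1R15A, VLDLR and WARS1. The 6 lower in 3 of 3 were SLC3A2 and the synthetase genes GARS1, NARS1, TARS1, YARS1 and KARS1, with log2 fold changes from -0.13 to -0.07. The pairs were unlike: 28 of the 38 were higher in the double knockout with 4C, 22 with 4A and 14 with 5Z, and the median pair difference was 0.15, 0.02 and -0.07. The 4C libraries were a weak pair, with a correlation of 0.103 across genes. The 4C double knockout library had one of 0.201 with the 4A JUN knockout library. Values by pair and with the block rest on this pairing.

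**Figure D4:**
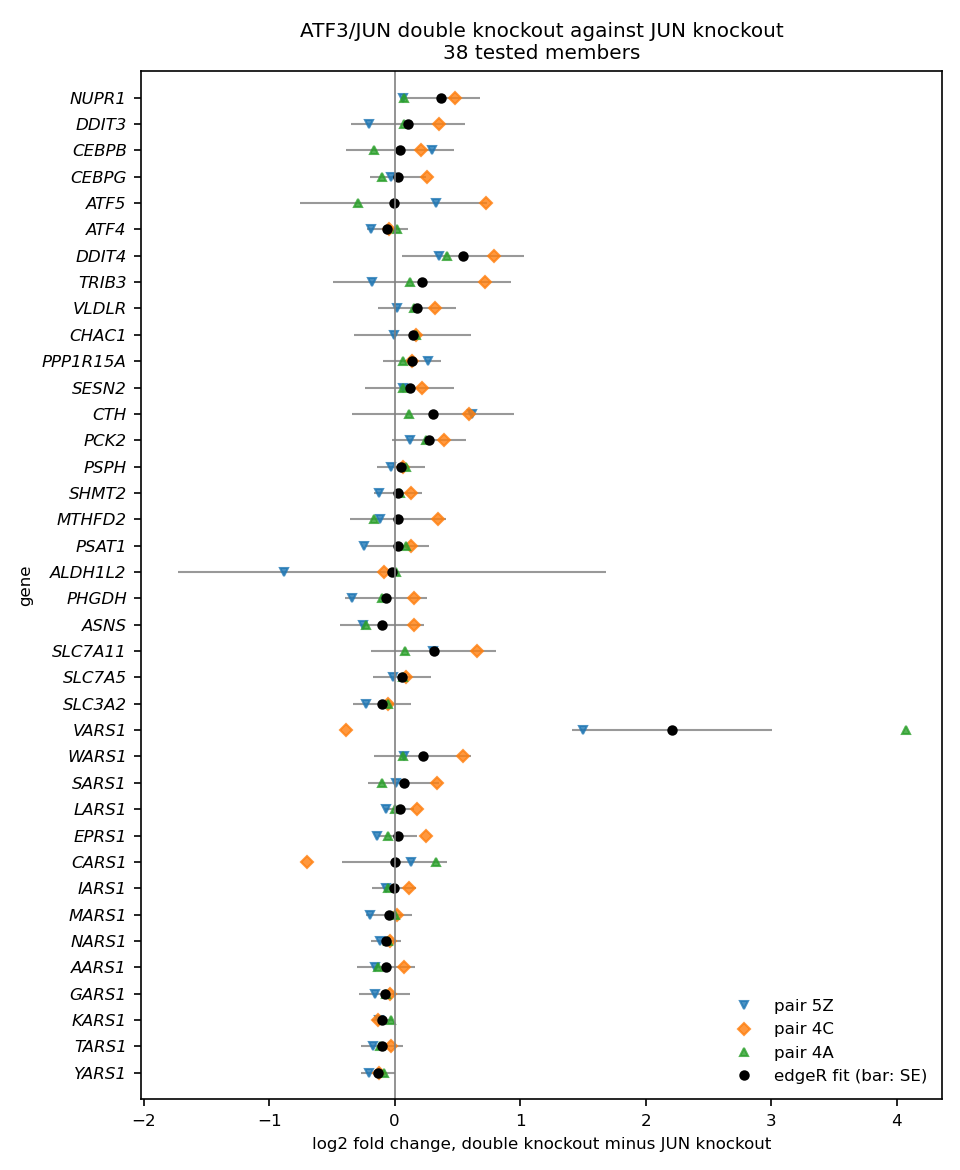
Log2 fold change for double knockout minus JUN knockout of the 38 tested genes, with the edgeR value as a black circle and its SE as a bar, and the difference within each clone code as a coloured mark. Most marks lie near 0, and VARS1 has its pairs far apart. DDIT4 is 1 of 9 genes with all 3 pairs above 0, against 18.0% of all genes.

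Of the related lists no gene passed between the genotypes. In the eIF2 list, EIF2AK3, the kinase PERK of the endoplasmic reticulum, was at 15.4, 21.0 and 13.3 CPM in double knockout replicates 1, 2 and 3 and at 11.4, 9.25 and 10.1 CPM in those of the JUN knockout, named here after its values were seen. The groups did not overlap, and its log2 fold change of 0.69 (SE 0.19) had an adjusted p of 0.789 in edgeR. EIF2B2, PPP1R15B and QARS1 also did not overlap and did not pass, and non-overlap was seen in 12.3% of all tested genes.

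Levels between genes were compared as TPM, which divides by transcript length, averaged over the 6 libraries. MARS1 was highest of the 40 at 614 TPM, followed by ATF4 at 444, GARS1 at 417 and MTHFD2 at 365 TPM. For MARS1 the coding transcript MARS-201 carried 63.1% of its reads, and its short transcripts weigh more in TPM. Ranks 5 to 21 lay between 112 and 286 TPM, among them WARS1 at 286, PHGDH at 277 and SLC7A5 at 270.0 TPM. Among the regulators, DDIT4 was at 137, TRIB3 at 44.2, CHAC1 at 32.6, ATF5 at 26.2 and DDIT3 at 22.4 TPM. SLC7A11 was at 10.8 and ALDH1L2 at 7.51 TPM, while STC2, GDF15 and NUPR1 were under 1 TPM. A single coding transcript dominated in several genes, as ATF4-202 with 81.2% of the ATF4 reads, CHAC1-204 with 87.9% and SLC7A11-201 with 99.9%. SLC7A5 was shared between SLC7A5-201 and SLC7A5-203, and SLC7A5-203 held 16.3%, 10.4% and 13.1% of its reads in the double knockout libraries of 5Z, 4C and 4A and 31.2%, 25.7% and 17.2% in those of the JUN knockout. MTHFD2-205, annotated for nonsense-mediated decay, held 14.0% to 23.6% of the MTHFD2 reads. These shares are Salmon's estimates and were not tested.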

How the data were processed

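Per the submitters' processing notes, reads were processed with FastQC 0.11.9 and Salmon 1.6.0 and the build hg38, and per the labels' protocols a stranded mRNA kit was used. Each deposited file lists 177456 transcripts with TPM and an estimated count, per the file headers. Here transcripts were joined to GENCODE release 29 by Ensembl identifier (94.1% matched, and the rest held 3.58% to 3.71% of the reads), and the estimated counts of each gene's transcripts added and rounded, and gene symbols were updated. Members and lists were chosen with earlier results of these data known. edgeR 4.0.16 in R 4.3.3 was run with filterByExpr, TMM and robust dispersion on 12954 genes, with group as the term for genotype, and with group and replicate number for the clone codes. The SE is the log2 fold change divided by the square root of F. DESeq2 1.42.0 and limma 3.58.1 served as alternatives. Same-numbered libraries share the code after JUN in the file names and were treated as pairs, although only the double knockout ones also carry an ATF3 code. Their deviations from their group's mean had correlations of 0.387, 0.103 and 0.523 across genes for numbers 1, 2 and 3. The pairing of number 2 is weak: the double knockout library 2 had a correlation of 0.201 with JUN knockout library 1, and the double knockout library 3 one of 0.103 with JUN knockout library 2. No library pair looked like a repeat (chi-square per gene of at least 12.3). By this value double knockout library 2 was nearest to double knockout library 1 (12.3), and JUN knockout library 2 to JUN knockout library 3 (13.5). It was 30.4 between the libraries numbered 2. JUN knockout library 1 lay slightly nearer to double knockout library 2 (21.7) than to double knockout library 1 (22.3). The scripts were tested on simulated data. By rule, values in every library are given for ATF4 and, in each role group, for the gene with the highest CPM, the gene with the widest range and the called genes (at most 5 with the lowest p).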

Additional observations from a re-analysis of the deposited data

How the results depend on the processing

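The genotype comparison called 0 of the 40 genes under each alternative run. Over all genes it called 1 with no low-count filter, 71 in DESeq2, 4 in limma-voom, and 0 when any library was left out. With the replicate block it called 0 genes, and the median log2 fold change of the tested members was 0.04. That median ran from -0.14 to 0.26 with 1 library left out, highest without the 4A library of the JUN knockout and lowest without that of the double knockout. Leaving out a library also turned the direction of ATF4 (-0.1914 to 0.0845, with 0.0225 without JUN knockout replicate 1, 0.0845 without replicate 3 of the double knockout), of CTH (-0.3439 to 1.2802, with -0.0343 without JUN knockout replicate 2, -0.3439 without replicate 1 of the double knockout) and of SLC7A11 (-0.0117 to 0.8532, with -0.0117 without JUN knockout replicate 3). PCK2 ran from 0.0775 to 0.516. The test over codes called 23 members and 227 genes as reported, 29 and 686 with no low-count filter, 10 and 61 with a transcript length offset, 32 and 905 in DESeq2, 18 and 162 in limma-voom, and 17 and 139 without robust dispersion, an alternative added after seeing the data. With 1 library left out, where the lone library of a code is assumed to vary like the others, it called 9 to 31 members and 141 to 2634 genes. The low end of both came without the 5Z double knockout library, and the high end without the 4A one. The median for 5Z minus 4A was then -0.91 to -0.73, for 5Z minus 4C -0.51 to -0.38 and for 4C minus 4A -0.38 to -0.20. Of the 30 calls for 5Z minus 4A, 14 were lost both without the 5Z double knockout and without the 5Z JUN knockout library (among them ATF4 and ATF5), 9 with the length offset, that of TRIB3 without either 4A library, that of ALDH1L2 without the 4A JUN knockout library, that of DDIT4 without a group term and that of ATF4 without robust dispersion, each with the same sign. The cause of these shifts was not tested. With 3 libraries a group, exact permutation cannot give a p below 0.1.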
